A study of Mus musculus with 27 samples.

Results

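Of 27 RNA sequencing libraries of sorted mouse cells, 7 held the lymphoid chemokine gene Ccl21a above 1000 CPM (the count of a gene scaled to a fixed total of reads in genes). These 7 were divided by Dpp4, which encodes a dipeptidyl peptidase of the fibroblast surface (CD26). A higher side of 3 libraries had Dpp4 above 13 CPM, and a lower side of 4 had Dpp4 below 13 CPM. The libraries and the sides were thus chosen by measured values of both genes. Differences in those and all other genes between the sides are therefore a description of these 7 libraries. A p-value computed for such a difference is used to order genes and is not read as a test.

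The series measured cells sorted from NOD mice aged 12 weeks, a strain that develops autoimmune diabetes. The mice were NOD/ShiLtJ without a transgene (TG-) or Ins2-CCL21 NOD (TG+), in which an insulin promoter drives CCL21. Per the labels, all 7 libraries came from pancreatic islets. The higher side consisted of the libraries labelled CD45 TG- replicate 3, gp38-low TG+ replicate 1 and gp38-low TG+ replicate 3. The lower side consisted of those labelled CD45 TG- replicate 1, CD45 TG- replicate 2, CD45 TG+ replicate 3 and gp38-low TG- replicate 3. Values per library are given in these orders throughout. The CD45 label stands for lymphocytes of islet infiltrates, and the gp38-low label for cells likened to fibroblastic reticular cells in tertiary lymphoid organs of islets. The labels do not say whether libraries came from separate animals or from pooled ones, so spread between libraries may be partly technical.

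Lymph nodes hold several kinds of non-haematopoietic stroma. T zone reticular cells make CCL19 and CCL21, which draw T cells and dendritic cells to the T zone, and make interleukin 7. Marginal reticular and follicular dendritic cells serve the B cell follicles and make CXCL13. Adventitial fibroblasts lie in the outer sheath of larger vessels and in the capsule and carry DPP4, PI16, CD34 and microfibril proteins. Pericytes and perivascular reticular cells contract and carry smooth muscle actin, encoded by Acta2. In bulk RNA, fewer cells of a type and less RNA per cell cannot be told apart.

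Dpp4 was at 23.1, 43.0 and 15.5 CPM on the higher side and at 10.01, 5.78, 10.6 and 11.4 CPM on the lower side. The libraries next to the threshold were gp38-low TG+ replicate 3 just inside, at 15.5 CPM, and gp38-low TG- replicate 3 just outside, at 11.4 CPM. Ccl21a was at 3323, 3582 and 2162 CPM on the higher side and at 5610, 4632, 5685 and 2809 CPM on the lower side. The next library below the Ccl21a threshold had 5.28 CPM, so no library lay near that boundary. The noncoding RNA Gm26917 took 9.78% to 18.2% of reads in genes on the higher side and 10.5% to 22.2% on the lower side. With its reads left out of the total, gp38-low TG- replicate 3 came to 14.7 CPM of Dpp4 and changed side. With TMM scaling (a correction for composition) it came to 12.96 CPM, still below the threshold, and no library changed side. The plot of both genes over all libraries shows the empty span in Ccl21a and the narrow one in Dpp4.

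**Figure D1:**
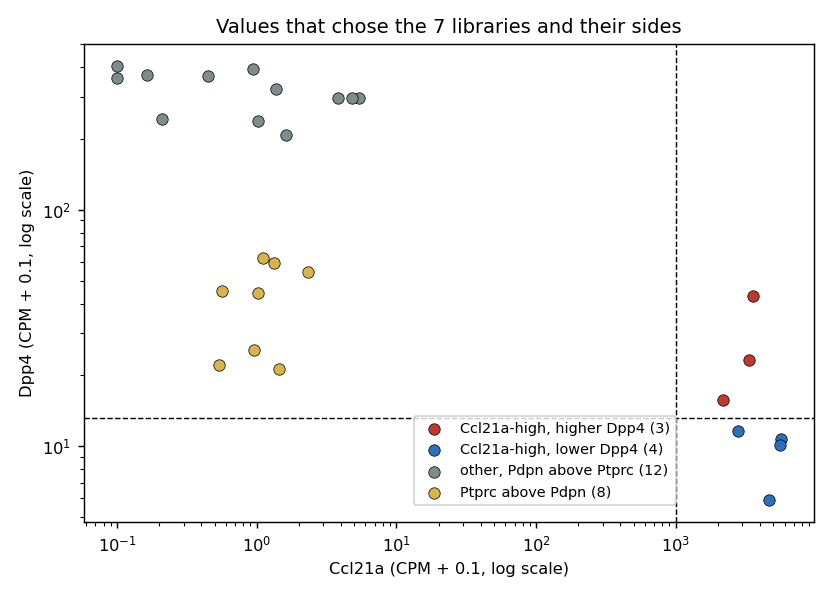
Ccl21a (x axis) against Dpp4 (y axis), both in CPM + 0.1 on log scales, 1 point per library for all 27. Dashed lines mark 1000 and 13 CPM; the 3 red and 4 blue points are the 2 sides, and the 12 grey points, other libraries with Pdpn above Ptprc, have Dpp4 at 207 to 407 CPM.

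The CD45 label did not match the RNA of the 4 libraries among the 7 that carry it. Ptprc, which encodes CD45, was at 1.28, 1.498 and 2.81 CPM on the higher side and at 3.09, 1.86, 5.79 and 3.38 CPM on the lower side. Pdpn, which encodes podoplanin (gp38), was at 77.0, 99.9 and 61.7 CPM against 95.6, 85.6, 103 and 93.3 CPM. Every one of the 7 was thus Pdpn-positive, with the pan-leukocyte transcript low but above 0. Elsewhere in the series labels and RNA also differed. In 5 libraries labelled as lymph node reticular cells Ptprc was at 169 to 633 CPM, and none so labelled had Ccl21a above 2.23 CPM. Ptprc was also high in gp38-low TG- replicate 1, at 678.5 CPM, and in gp38-high TG- replicate 2, at 451 CPM. In CD45 TG+ replicates 1, 2 and 4 it was at only 1.13, 1.15 and 0.38 CPM, while CD45 TG- replicate 4 matched its label at 261 CPM. Labels may therefore be wrong for some libraries. The sort, the genotype and the islet origin of the 7 are given as labelled, and no value here checks the genotype. Hormone genes of islet endocrine cells summed to at most 2.62 CPM, and 4 of the 14 genes listed were at 0 in all 7. The 18 acinar genes listed summed to at most 3.78 CPM. Reads in genes numbered 9609428 to 19372125 per library, so a count of 0 allows up to 0.155 to 0.312 CPM, a limit that covers counting error only.

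Ccl19 marks T zone stroma, and its transcript separated the 7 from the other stroma as Ccl21a did. It was at 824, 948 and 636 CPM on the higher side and at 786, 689, 808 and 985 CPM on the lower side. In the 12 other libraries with Pdpn above Ptprc it was at 1.30 to 8.86 CPM, with a median of 2.60 CPM. Acta2 was at 395, 366 and 275 CPM against 306, 312, 396 and 456 CPM, and at 9.15 to 93.6 CPM in the other 12. For Dpp4 the order was opposite, since the other 12 had 207 to 407 CPM, above all 7. Dpp4 on the higher side was thus high only beside the lower side.

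**Figure D2:**
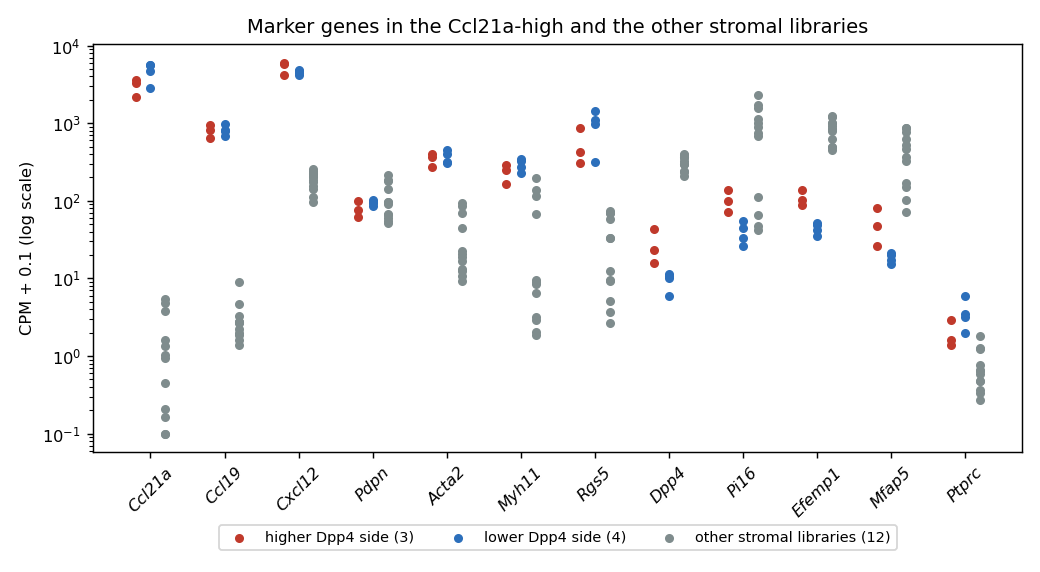
CPM + 0.1 (y axis, log scale) of 12 marker genes (x axis), 1 point per library, for the higher (red, 3) and lower (blue, 4) Dpp4 sides and the 12 other stromal libraries (grey). Ccl21a, Ccl19 and Cxcl12 are far higher in the 7 than in the 12, and Dpp4 and Efemp1 are lower in the 7.

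Adventitial fibroblast genes were higher on the higher Dpp4 side almost throughout. Apart from Dpp4, all 25 genes of the list passed the filter on low counts. Their log2 differences, higher minus lower side, were above 0 for 23 of 25, against 50.2% of the 14914 genes tested. The median difference was 1.19, and the range ran from -0.36 to 1.79. In 16 of 25 genes all 3 higher-side libraries lay above all 4 lower-side ones, against 3.23% of all genes. The 16 became 13 with TMM-scaled CPM, and also 13 with Gm26917 left out of the total. In 0 of 25 did all 3 lie below, against 2.37% of all genes. Genes with no overlap between the sides are called separated. Across all genes, edgeR's quasi-likelihood test called 0 of 14914 (0.0%) at a false discovery rate of 0.05, with 932 at an unadjusted p under 0.05. DESeq2 called 122 and limma-voom 131. Nothing is read from these calls, because Dpp4 in the same libraries set the sides.

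Efemp1, which encodes fibulin-3 of the extracellular matrix, was at 103, 139 and 89.3 CPM on the higher side and at 51.4, 42.4, 35.5 and 48.3 CPM on the lower side. Its log2 difference of 1.35 ± 0.19 (SE) had the smallest unadjusted p in the list. Each higher-side library lay well clear of each lower-side one. Mfap5, a component of elastic microfibrils, was at 47.0, 80.4 and 25.9 CPM against 19.7, 15.4, 17.0 and 20.9 CPM (1.51 ± 0.28). Pcolce2, which enhances the trimming of procollagen, was at 43.1, 67.9 and 30.5 CPM against 21.9, 19.8, 18.9 and 24.1 CPM (1.19 ± 0.23). In both, gp38-low TG+ replicate 1 was the highest and gp38-low TG+ replicate 3 the lowest of the higher side. Ly6c1, a small surface protein anchored in the membrane by a lipid, was at 56.7, 71.7 and 26.6 CPM against 17.0, 11.2, 12.7 and 20.4 CPM (1.79 ± 0.31). Ly6c1 has close relatives in the genome, so its count is uncertain. Gfpt2, an enzyme of hexosamine synthesis, was at 303, 287 and 159 CPM against 143, 136, 82.1 and 91.2 CPM (1.21 ± 0.24).

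The other members were looked at by their values. Pi16, a peptidase inhibitor that marks adventitial fibroblasts in many organs, was at 101, 137 and 71.6 CPM against 44.9, 26.3, 33.2 and 54.8 CPM (1.39 ± 0.28) and did not overlap. Across the sides, gp38-low TG+ replicate 3 and gp38-low TG- replicate 3 were the closest pair. Ackr3, a scavenging receptor for CXCL12, was at 67.4, 70.9 and 33.9 CPM against 30.0, 25.2, 29.0 and 26.96 CPM (1.10 ± 0.22). In Ackr3 gp38-low TG+ replicate 3 lay just above the lower side. Igfbp6, which binds insulin-like growth factor, was at 142, 123 and 60.4 CPM against 28.5, 25.0, 31.0 and 57.6 CPM. Cd248 (endosialin) was at 134, 166 and 133 CPM against 71.5, 61.3, 50.7 and 129.6 CPM. Cd34, a sialomucin of fibroblasts and endothelium, overlapped, at 154.5, 241 and 93.0 CPM against 69.9, 57.0, 62.7 and 97.7 CPM. Some matrix genes of the list differed less, as in Dcn (decorin), with a log2 difference of 0.24 ± 0.19, and Fbn1 (fibrillin-1), with 0.46 ± 0.17. Limch1 at -0.36 ± 0.27 and Col14a1 at -0.13 ± 0.25 were lower on the higher side, and the sides overlapped in both.

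Within the list the libraries kept an order in most genes. Of 25 genes, gp38-low TG+ replicate 1, which has the most Dpp4, was the highest of the 7 in 17. In the rest the highest was CD45 TG- replicate 3 (3 genes) or a lower-side library: CD45 TG+ replicate 3 (3) and CD45 TG- replicate 2 (2). The library gp38-low TG+ replicate 3 was the lowest of the higher side in 23. On the lower side gp38-low TG- replicate 3 was the highest in 11 of 25 and CD45 TG- replicate 1 in 7. The list's mean log2(CPM + 0.5), centred per gene over the 7, was 0.494, 0.971 and -0.007 on the higher side and -0.221, -0.472, -0.481 and -0.284 on the lower side. In the list as a whole, gp38-low TG+ replicate 3 thus lay nearer to the top of the lower side than to the other libraries of its own side.

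**Figure D3:**
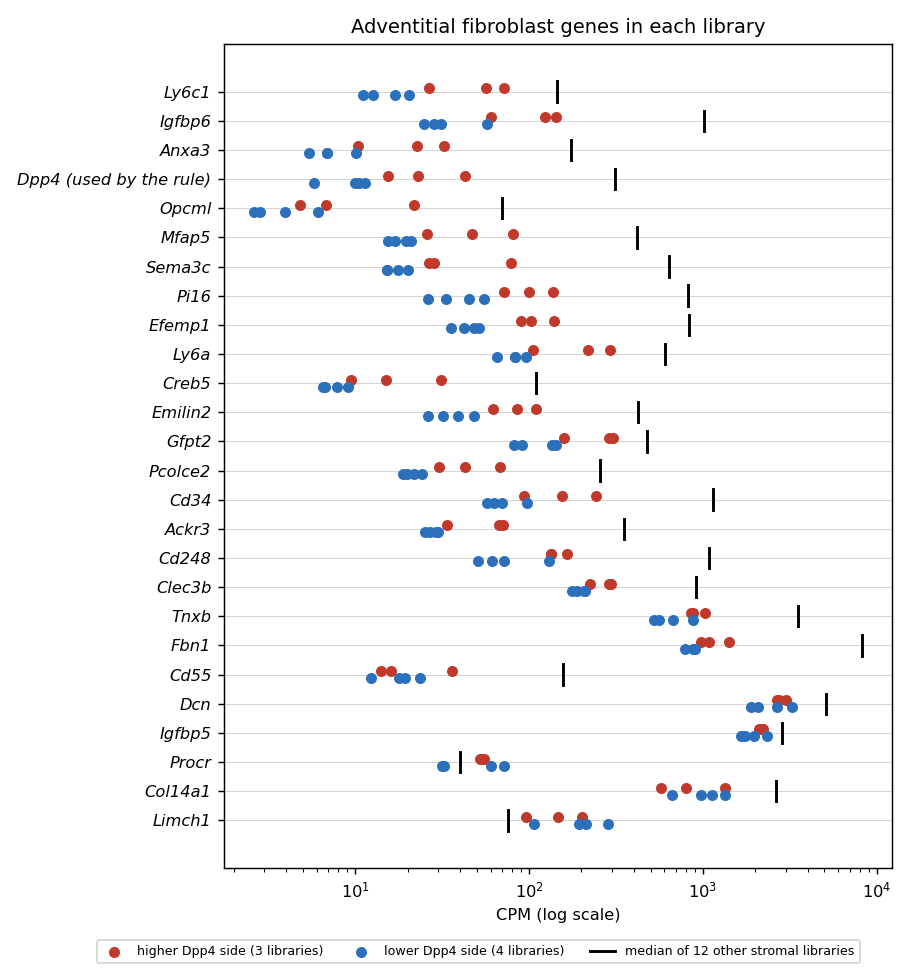
CPM (x axis, log scale) of the 26 adventitial fibroblast genes (y axis, ordered by log2 difference), with red points for the 3 higher-side libraries, blue points for the 4 lower-side libraries and black bars for the median of the 12 other stromal libraries. Red points lie to the right of blue ones in 16 of the 25 genes other than Dpp4, and the black bar lies to the right of all 7 points in 23 of 25.

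The level on the higher side was mostly still far below the median of the other stroma. In 23 of the 25 genes the median of the 12 other stromal libraries lay above all 7 Ccl21a-high ones, against 34.7% of all genes tested. For the 16 genes whose sides did not overlap, the difference between the means of the sides came to 3.56% to 28.8% of that median, with a middle value of 8.23%. For Dpp4 itself it came to 5.72%. Efemp1 was at 453 to 1244 CPM in the other 12, and Sema3c, a secreted guidance protein, was at 485 to 973 CPM there, against 15.2 to 78.2 CPM in the 7. In most members, however, the 12 did not all lie above the 7. Their lowest value exceeded the highest of the 7 in only 7 of the 25 genes, and in 6 of the 16 without overlap. Pi16 was at 41.7 to 2318 CPM and Pcolce2 at 11.5 to 529 CPM in the 12.

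Both sort labels occurred on both sides, so the sides were also compared within each label. Among the 4 libraries labelled CD45, replicate 3 of TG- is the only one on the higher side. It lay above the other 3 in 19 of the 25 adventitial genes, against 21.1% of all genes. Among the 3 labelled gp38-low, both higher-side libraries lay above the lower-side one in 21 of 25, against 49.9% of all genes. With 1 library on a side in each case, these counts have no replicate check. The sides were still those set by Dpp4, so the counts are a description and no test of the sort label.

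The promoters of Dpp4 and of 3 other genes of the list are shown, with the AP-1 motif marked because genes of some AP-1 proteins were higher on the same side (values are given with the immediate early genes). Efemp1, Gfpt2 and Creb5 were picked from the members that hold the motif, after the matches were seen. Sequences are the 250 bases before the gene start, from RefSeq on GRCm38.p6, 5′ to 3′ on the gene's strand, with matches to TGANTCA (either strand) in capitals. Dpp4 lies on the minus strand at chr2:62412232-62412481, Efemp1 on the plus strand at chr11:28852955-28853204, Gfpt2 on the plus strand at chr11:49793905-49794154 and the second listed start of Creb5 on the plus strand at chr6:53573124-53573373.
Dpp4: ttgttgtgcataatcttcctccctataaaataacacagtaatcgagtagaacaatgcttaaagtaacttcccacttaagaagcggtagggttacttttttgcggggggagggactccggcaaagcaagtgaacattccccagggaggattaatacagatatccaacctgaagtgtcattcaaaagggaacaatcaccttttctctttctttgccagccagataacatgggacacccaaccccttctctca
Efemp1: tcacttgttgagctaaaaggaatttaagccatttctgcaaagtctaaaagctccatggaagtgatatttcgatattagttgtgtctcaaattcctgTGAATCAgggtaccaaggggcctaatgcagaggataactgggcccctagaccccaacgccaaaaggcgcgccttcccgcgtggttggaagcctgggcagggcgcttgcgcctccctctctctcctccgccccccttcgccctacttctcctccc
Gfpt2: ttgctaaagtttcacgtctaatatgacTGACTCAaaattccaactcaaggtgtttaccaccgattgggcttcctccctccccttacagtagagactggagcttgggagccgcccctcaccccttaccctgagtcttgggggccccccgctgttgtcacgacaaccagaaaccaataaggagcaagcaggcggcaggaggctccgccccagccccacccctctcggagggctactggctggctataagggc
Creb5: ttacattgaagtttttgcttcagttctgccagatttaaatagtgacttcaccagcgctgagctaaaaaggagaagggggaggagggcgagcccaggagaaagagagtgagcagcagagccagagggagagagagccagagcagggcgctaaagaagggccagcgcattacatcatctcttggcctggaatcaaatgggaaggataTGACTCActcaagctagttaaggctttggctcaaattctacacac
The Dpp4 window holds 0 matches and each of the other windows holds 1, at -154 in Efemp1, -223 in Gfpt2 and -45 in Creb5, counted from the gene start. The first listed start of Creb5 holds 0 matches. Of the 26 genes listed, 19 had a promoter entry, and 5 of those held a match (Creb5, Efemp1, Gfpt2, Procr and Tnxb), against 7.82% of 27018 genes. Lists with other behaviour held the motif too, in 3 of 15 T zone reticular, 2 of 8 glucocorticoid-induced and 2 of 20 contractile genes with an entry. Whether the adventitial share differs from theirs was not tested. A match describes letters in a window and is not evidence of a bound site.

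T zone reticular genes differed little as a list. Of the 19 listed genes other than Ccl21a, 17 passed the filter, and Nos2 and Ccl21b did not. Log2 differences were above 0 for 6 of 17, with a median of -0.09. In 1 gene all 3 higher-side libraries lay below (Il15), and in 0 above, near the shares over all genes (2.37% and 3.23%). Ccl19 was at 802.5 ± 157 CPM (mean ± SD, n = 3) on the higher and 817 ± 123 CPM (mean ± SD, n = 4) on the lower side, a log2 difference of 0.01 ± 0.21. Its sign turned with the libraries used, from -0.10 without CD45 TG- replicate 2 to 0.19 without gp38-low TG- replicate 3. Il15, a cytokine for killer and memory T cells, was at 2.55, 3.86 and 4.06 CPM on the higher side and at 5.57, 6.50, 8.69 and 5.94 CPM on the lower side (-0.89 ± 0.26). Il7, the survival cytokine of naive T cells, was at 41.4, 67.3 and 50.9 CPM against 79.3, 85.4, 104 and 45.9 CPM (-0.50 ± 0.21). All the lower-side libraries except gp38-low TG- replicate 3 had more Il7 than any on the higher side. Ccl21a, which the choice of libraries used, had the same arrangement, with a log2 difference of -0.56 ± 0.24. Cxcl12, a chemokine that retains B cells and plasma cells, was at 5869, 4173 and 6042 CPM against 4768, 4793, 4210 and 4371 CPM (0.31 ± 0.21), with overlap. Ptgs2, the inducible prostaglandin synthase, differed by 0.62 ± 0.37 and also overlapped (0.38 without CD45 TG+ replicate 3). Genes with near-identical copies, Ccl21a and Ccl19 among them, have uncertain counts.

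Genes of marginal reticular and follicular dendritic cells were mostly slightly lower on the higher side. All 12 passed the filter, 3 were higher, and the median difference was -0.10. Coch, a matrix protein, was the 1 gene with all 3 higher-side libraries below (2.37% over all genes), at 0.766, 1.02 and 0.208 CPM against 1.97, 1.70, 1.24 and 1.19 CPM. These are low levels. Cr2, the complement receptor of follicular dendritic cells and B cells, was at 7.59, 17.2 and 8.95 CPM against 17.5, 23.8, 34.0 and 9.96 CPM (-0.87 ± 0.33). The B cell chemokine Cxcl13 was at 345, 393 and 276 CPM against 368, 448, 240.2 and 227.5 CPM, a difference of 0.14 ± 0.22. Clu, a secreted chaperone, differed by -0.29 ± 0.18, Tnfsf11 (the cytokine RANKL) by -0.36 ± 0.25, and Fcer2a by -0.73 ± 0.62 (-0.34 without gp38-low TG+ replicate 1).

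Contractile genes had no common direction. Of 25 listed, 21 passed the filter, and Actg2, Myocd, Casq2 and Pln did not. Differences were above 0 for 11 of 21, and the median was 0.02. Acta2 was at 345 ± 62.7 CPM (mean ± SD, n = 3) on the higher and 368 ± 71.9 CPM (mean ± SD, n = 4) on the lower side, a log2 difference of -0.05 ± 0.23. Its sign turned with the libraries used: the difference was 0.16 without gp38-low TG- replicate 3 and 0.08 without gp38-low TG+ replicate 3. Itga8, an integrin chain of contractile mesenchyme, was the 1 gene with all 3 above (3.23% over all genes), at 16.6, 20.3 and 11.97 CPM against 10.96, 11.7, 8.98 and 7.402 CPM (0.80 ± 0.20). Myh11, smooth muscle myosin, was at 246, 292 and 166.5 CPM against 329, 270.4, 347 and 230.0 CPM (-0.27 ± 0.19). Nexn, Synpo2, Pdlim3 and Mylk, which build or steer actin filaments, differed by -0.73 ± 0.31, -0.29 ± 0.18, -0.30 ± 0.19 and -0.25 ± 0.17, all with overlap. Without gp38-low TG+ replicate 1 the Nexn log2 difference was -1.17. In 16 of the 21 genes the median of the other 12 stromal libraries lay below all 7, against 18.3% of all genes.

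Pericyte genes were slightly lower on the higher side. Of 16 listed, 13 passed the filter, 2 were higher, and the median was -0.18. Pdgfrb, the receptor that recruits pericytes, was the 1 gene with all 3 below (2.37% over all genes), at 563, 594 and 590.0 CPM against 731, 638, 783 and 631 CPM (-0.20 ± 0.16). Rgs5, a brake on G protein signalling, was at 426, 863 and 309 CPM against 1105, 1443, 985 and 320 CPM (-0.79 ± 0.39). The 3 lower-side libraries labelled CD45 had the most Rgs5, and gp38-low TG- replicate 3 lay with the higher side. Without gp38-low TG+ replicate 1 the Rgs5 difference was -1.22. Gucy1a1 and Gucy1b1, subunits of the nitric oxide receptor, differed by -0.44 ± 0.22 and -0.37 ± 0.20. Notch3 differed by -0.18 ± 0.19. With the population label (gp38-low or CD45) as a term in the fit, Rgs5 came to -0.34, Gucy1a1 to -0.25 and Gucy1b1 to -0.27. Pdgfrb stayed at -0.20 and Notch3 came to -0.22.

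**Figure D4:**
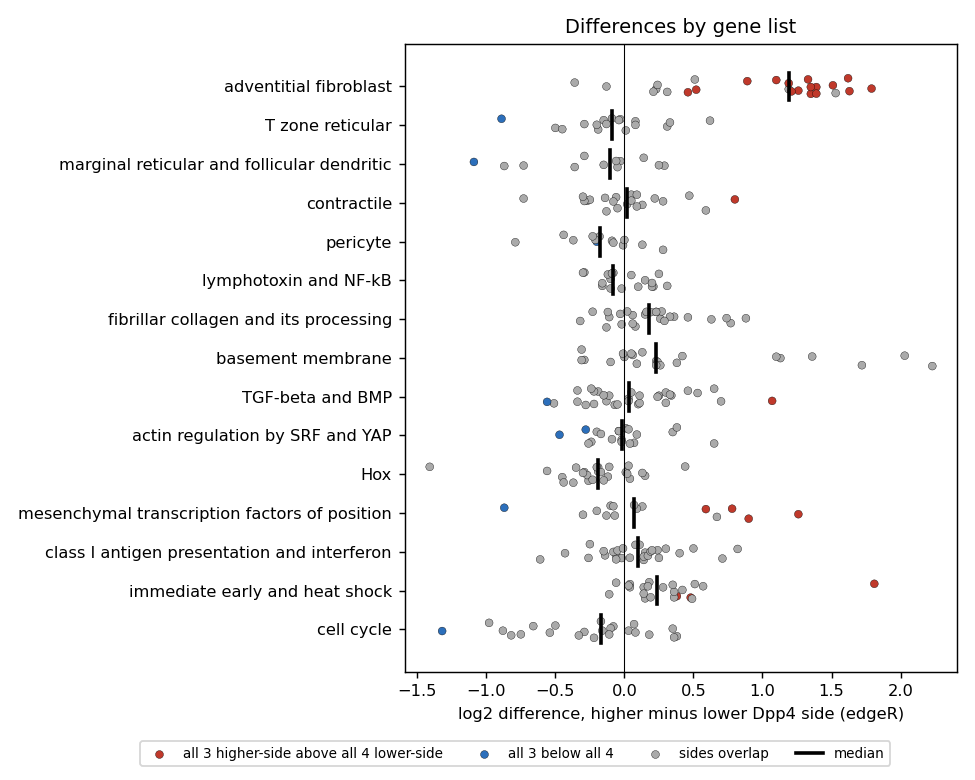
Log2 difference between the sides (x axis, higher minus lower, edgeR), 1 point per gene that passed the filter, for 15 gene lists (y axis; markers of other cell types and lists added later are not plotted), with Dpp4 and Ccl21a left out and black bars for medians. Red points have all 3 higher-side libraries above all 4 lower-side ones and blue points below; the adventitial median is 1.19, and the other 14 medians plotted lie between -0.19 and 0.24.

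As lists, matrix genes were highest in gp38-low TG+ replicate 1, and the higher side did not lie above the lower one as a whole. Of 26 fibrillar collagens and collagen-processing genes 19 were higher, with a median of 0.18, and of 22 basement membrane genes 16 were higher, with a median of 0.23. In 0 genes of either list did the sides separate. The mean centred log2 level of the collagen list was 0.005, 0.475 and -0.279 on the higher side and 0.055, 0.074, -0.066 and -0.265 on the lower side, so only gp38-low TG+ replicate 1 exceeded the lower side. For the basement membrane list it was 0.199, 0.683 and -0.280 against -0.107, -0.249, -0.297 and 0.052, and gp38-low TG+ replicate 1 was the highest of the 7 in 14 of its 22 genes. Lama2, the laminin chain of fibroblast and muscle basement membranes, was at 198, 387 and 111 CPM on the higher side and at 99.6, 89.2, 59.5 and 114 CPM on the lower side (1.36 ± 0.33). On the higher side only gp38-low TG+ replicate 3 fell within the range of the lower side, and the difference was 0.88 without gp38-low TG+ replicate 1. Col15a1, a collagen of vessel sheaths, was ordered alike, with a difference of 1.10 ± 0.48. The type IV collagen genes Col4a3, Col4a4 and Col4a5 and the laminin gene Lamc3 differed by 2.23 ± 0.66, 1.72 ± 0.63, 1.13 ± 0.36 and 2.03 ± 0.74. Without gp38-low TG+ replicate 1 these came to 1.26, 1.06, 0.66 and 1.28. Col4a3 was at most 4.34 CPM in the 7. The collagen cross-linking enzymes Loxl2, Loxl1 and Lox differed by 0.88 ± 0.23, 0.46 ± 0.19 and 0.63 ± 0.31. Col5a3 and Lum, which shape collagen fibrils, differed by 0.77 ± 0.29 and 0.74 ± 0.32. Without gp38-low TG+ replicate 1 the differences of Lox, Col5a3 and Lum were 0.16, 0.40 and 0.30.

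Genes of signalling pathways moved singly. For TGF-beta and BMP signalling, 31 of 32 genes passed, 17 were higher and the median was 0.03. Fst, the activin trap follistatin, was at 43.9, 75.2 and 45.4 CPM against 32.0, 23.1, 19.5 and 31.9 CPM (1.07 ± 0.23) and did not overlap. It was the 1 gene of the 31 with all 3 above, against 3.23% of all genes. Smad6, an inhibitor of BMP signalling, was at 9.70, 9.30 and 18.0 CPM against 19.3, 18.9, 18.5 and 18.6 CPM (-0.56 ± 0.24). Its value in gp38-low TG+ replicate 3 nearly reached the lower side, and the difference was -0.94 without it and -0.35 without gp38-low TG+ replicate 1. Gdf10 and Bmp4, both ligands of the family, differed by 0.53 ± 0.19 and -0.51 ± 0.23, with overlap (Bmp4 -0.33 without CD45 TG+ replicate 3).

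Of 20 genes of actin regulation by SRF and YAP, 19 passed, 8 were higher and the median was -0.02. Amotl2, which holds YAP at junctions, was at 328, 338 and 388 CPM against 504, 470.1, 619 and 435 CPM (-0.47 ± 0.17). Ajuba, a scaffold at junctions, was at 28.5, 31.4 and 27.8 CPM against 34.6, 34.4, 38.9 and 39.3 CPM (-0.28 ± 0.16). Both separated the sides downward, as 2 of the 19 genes, against 2.37% of all genes. Ajuba was at -0.18 without gp38-low TG- replicate 3. Srf, Zyx and Ccn2 differed by 0.35 ± 0.20, 0.38 ± 0.22 and 0.65 ± 0.40. Without CD45 TG- replicate 3 Srf came to 0.22 and Zyx to 0.24, and without gp38-low TG+ replicate 1 Ccn2 came to 0.33. For the lymphotoxin and NF-kB pathway, which lymphoid stroma needs to mature, 19 of 20 passed, 8 were higher and the median was -0.08, with 0 genes separated. Its differences ran from -0.30 to 0.31, the former in Traf3, a restraint on the alternative NF-kB arm. Ltb, Nfkb1, Nfkbia and Rela differed by -0.29 ± 0.17, 0.20 ± 0.16, 0.25 ± 0.21 and 0.20 ± 0.17. Without CD45 TG- replicate 3 Nfkbia came to 0.01 and Rela to 0.05, and without CD45 TG+ replicate 3 Nfkb1 came to 0.11.

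Transcription factors that record body position were examined because stroma of different sites differs in them. Of 39 Hox genes 25 passed, 7 were higher and the median was -0.19, with 0 separated. Hoxc8 was at 17.6, 17.7 and 13.3 CPM against 26.5, 24.9, 26.2 and 14.8 CPM, and at most 0.923 CPM in the 12 other stromal libraries. The 7 thus shared a Hox gene that the others nearly lacked. Of 24 other position factors 15 passed, and 4 separated upward, against 3.23% of all genes, among them Twist1 at 15.8, 21.4 and 12.1 CPM against 10.8, 11.4, 6.74 and 10.7 CPM (0.78 ± 0.23). The others were Twist2 (0.59 ± 0.22), Alx4 (1.26 ± 0.36) and Tbx5 (0.90 ± 0.36). Nkx3-2, a factor of spleen and gut mesenchyme, was the 1 that separated downward (2.37% over all genes), at most 1.18 CPM in the 7.

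Immediate early and heat shock genes, which tissue dissociation induces, were higher in 20 of 22, with a median of 0.24. Fosl1 was at 14.4, 12.9 and 4.89 CPM on the higher side and at 3.88, 4.08, 1.42 and 3.47 CPM on the lower side (1.81 ± 0.39). Fosl2 differed by 0.48 ± 0.18 and Junb by 0.38 ± 0.19, and these 3 genes, all of AP-1 subunits, separated the sides, against 3.23% of all genes. The part of these genes in the adventitial difference was not tested. Class I antigen presentation and interferon genes were higher in 16 of 28, with a median of 0.10 and 0 separated.

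Genes known to respond to glucocorticoids were listed after Mt1 had been seen among the separated genes, so their counts are a description only. All 10 were higher, with a median of 1.02, and 3 separated, against 3.23% of all genes. Mt1, which prompted the list, is 1 of those 3, so that comparison was partly set in advance. Tsc22d3, the glucocorticoid-induced leucine zipper, was at 273, 277 and 86.0 CPM on the higher side and at 81.9, 87.8, 86.5 and 75.3 CPM on the lower side (1.41 ± 0.30). Zbtb16 was at 164, 218 and 68.8 CPM against 50.6, 44.2, 79.5 and 55.1 CPM (1.43 ± 0.31). In both genes CD45 TG- replicate 3 and gp38-low TG+ replicate 1 stood apart, and gp38-low TG+ replicate 3 lay with the lower side. The metallothionein gene Mt1, which metals and glucocorticoids induce, was at 188, 209 and 63.6 CPM against 40.3, 39.7, 16.1 and 46.4 CPM (2.14 ± 0.41). Its promoter is shown because it carries ACANNNTGT, a glucocorticoid receptor palindrome, in capitals (either strand), from RefSeq on GRCm38.p6, plus strand, chr8:94178839-94179088.
Mt1: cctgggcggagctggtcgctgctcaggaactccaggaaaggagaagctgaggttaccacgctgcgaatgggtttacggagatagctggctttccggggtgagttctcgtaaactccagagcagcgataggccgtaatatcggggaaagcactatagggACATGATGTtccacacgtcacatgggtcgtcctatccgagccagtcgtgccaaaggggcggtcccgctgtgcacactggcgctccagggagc
The match starts at -92. Of the 10 genes 8 had a promoter entry and 2 held a match (Mt1 and Sgk1), against 6.77% of 27018 genes. Matches to TGANTCA and ACANNNTGT overlapped in 5 of 32841 promoter windows.

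Genes of the interferon-inducible p200 family on chromosome 1 were listed after Ifi205 had been seen. All 7 that passed, of 12 listed, were higher, with a median of 1.47 that includes Ifi205. Ifi205 was at 33.8, 76.3 and 13.1 CPM against 8.32, 11.3, 11.4 and 8.04 CPM (2.09 ± 0.39), and Ifi204 at 41.2, 85.7 and 23.8 CPM against 18.6, 21.1, 17.8 and 16.6 CPM (1.47 ± 0.29). The library gp38-low TG+ replicate 1 was the highest in both. These genes are close copies of each other, so the split of reads among them is uncertain.

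**Figure D5:**
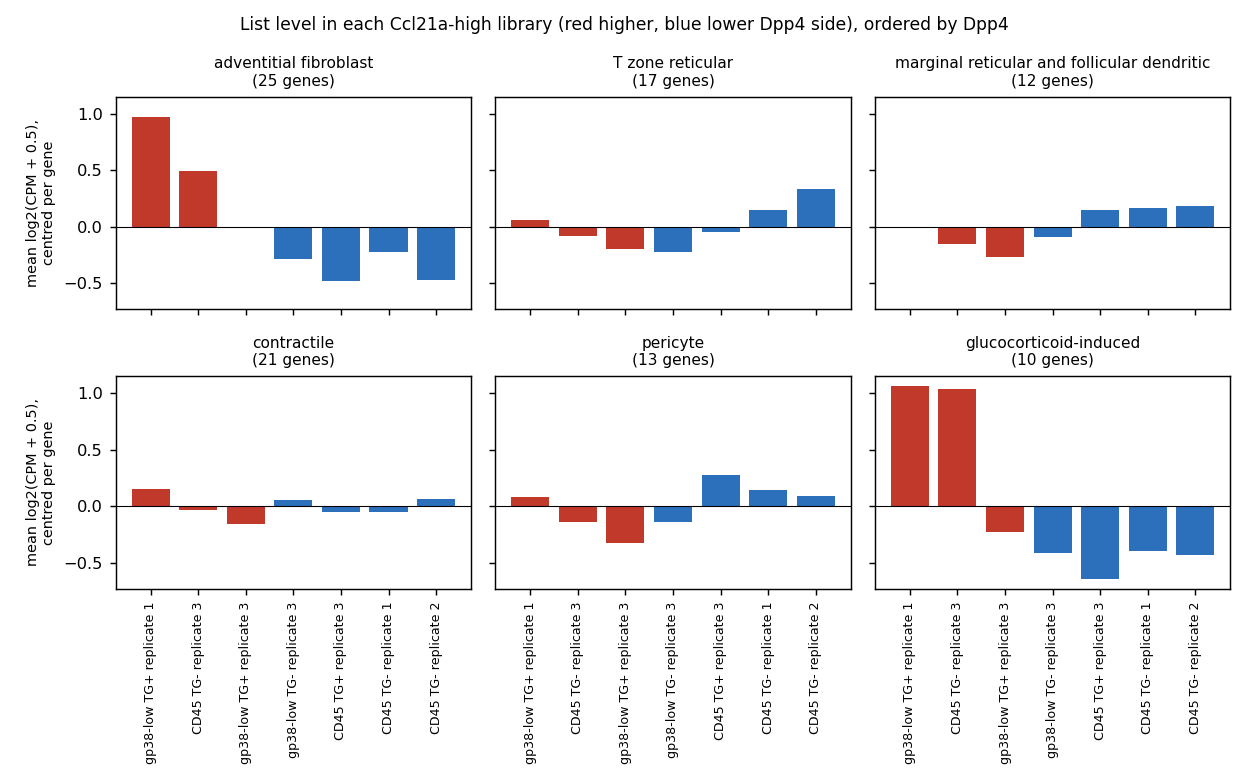
Mean log2(CPM + 0.5) of the genes of 6 lists, centred per gene over the 7 libraries (y axis), for each library (x axis, ordered from most to least Dpp4), with red bars for the higher and blue for the lower side. The adventitial bars run from 0.971 down to -0.481, the contractile bars stay near 0, and the glucocorticoid-induced bars are high in 2 libraries only.

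Among genes whose log2 CPM averaged 3 or more, the separated ones with the smallest unadjusted p were taken, 10 in each direction. Those higher on the higher side were Efemp1, Fgf10, Hk2, Ppl, Ism1, Ly6c1, Aldh1a1, Itgb3, Myoc and Ifi205. Fgf10, a mesenchymal growth factor for epithelia, was at 17.2, 26.5 and 23.2 CPM against 12.1, 10.4, 8.57 and 10.1 CPM (1.16 ± 0.18). Hk2, an inducible hexokinase, was at 56.9, 49.0 and 40.7 CPM against 23.7, 24.3, 12.2 and 18.0 CPM (1.39 ± 0.23). Aldh1a1, an enzyme of retinoic acid synthesis, was at 15.8, 21.4 and 11.8 CPM against 7.98, 7.07, 5.14 and 7.22 CPM (1.30 ± 0.23). Myoc, a secreted glycoprotein, differed most, by 2.62 ± 0.47, at 25.5, 12.3 and 5.93 CPM against 2.98, 1.29, 2.25 and 3.75 CPM. Ppl (periplakin), Ism1 (isthmin) and Itgb3 (an integrin chain) differed by 1.43 ± 0.24, 1.52 ± 0.26 and 1.55 ± 0.28.

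The 10 genes lower on the higher side were Hey2, Myrf, Spic, Rnf144b, Ip6k3, D430019H16Rik, Fhdc1, Fzd5, Tnfaip8 and Ccdc149. Hey2, a target of Notch signalling, was at 6.32, 8.75 and 6.97 CPM against 17.0, 16.3, 27.01 and 10.1 CPM (-1.20 ± 0.26). Spic, a transcription factor of the Ets family, was at 27.8, 34.1 and 33.0 CPM against 49.3, 51.6, 58.3 and 39.6 CPM (-0.59 ± 0.15), and at most 0.0719 CPM in the 12 other stromal libraries. Ip6k3, an inositol phosphate kinase, was at 12.8, 15.2 and 15.6 CPM against 24.4, 19.3, 27.1 and 24.9 CPM (-0.67 ± 0.19). In 5 of these 10 genes the median of the other 12 lay below all 7, against 18.3% of all genes, and in 4 it lay above all 7, against 34.7%. Their differences ran from -1.20 to -0.46, against 1.16 to 2.62 for the 10 higher genes.

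The other 12 stromal libraries, which set neither side, were compared in both directions. They are a mixed group, in which mesothelial genes summed to 109 to 8938 CPM and acinar genes to 142 to 16320 CPM. All 12 had more Dpp4 than the 7, at 207 to 407 CPM, so they are not a reference neutral to Dpp4. Of the 482 genes with all 3 higher-side libraries above, 54.6% had a median in the 12 that exceeded all 7, against 34.7% of all genes tested. Of the 354 genes with all 3 below, 38.4% had a median in the 12 under all 7, against 18.3% of all genes. Genes are not independent replicates, and these shares are a description.

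Markers of other cells were mostly low in level, but some of their lists differed between the sides as much as the adventitial one. Genes of lymphatic endothelium were lower in 7 of 10 that passed, with a median of -0.80 and the lowest difference, -5.54, in Mmrn1, which rests on few counts. Mmrn1, which lymphatic endothelial cells secrete, was at 0.0638, 0 and 0 CPM on the higher side and at 1.46, 3.36, 1.83 and 0 CPM on the lower side. Stab2 was at 1.91, 1.498 and 4.37 CPM against 9.89, 16.5, 6.09 and 2.29 CPM, and Lyve1 at 0.957, 2.29 and 1.77 CPM against 7.08, 6.71, 3.72 and 1.37 CPM. All the lower-side libraries except gp38-low TG- replicate 3 thus held more of these transcripts than the rest, and the same libraries held the most Ccl21a, which lymphatic endothelium also makes. The part of lymphatic cells in the differences was not tested. Thy1, shared with fibroblasts, went the other way, at 51.8, 72.4 and 14.3 CPM against 11.9, 9.65, 11.5 and 18.3 CPM.

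Of 14 blood endothelial genes 9 passed and 3 were higher. Tek, an angiopoietin receptor, was the 1 gene that separated upward (3.23% over all genes), at 50.7, 60.4 and 46.2 CPM against 38.2, 30.4, 27.1 and 37.3 CPM. Pecam1 was at most 8.83 CPM. Of 10 adipocyte genes 5 passed and all 5 were higher, with a median of 1.66, above the adventitial 1.19, and a summed level of 18.3 to 35.9 CPM against 4.26 to 14.8 CPM. Adipoq, the defining adipocyte hormone, was at most 0.128 CPM. Of the 5 erythroid genes, mostly of haemoglobin, 3 passed and all 3 were higher, with a median of 1.62 and a sum of 8.36 to 17.7 CPM against 0 to 9.11 CPM. The epithelial list summed to 59.7 to 84.5 CPM against 45.1 to 72.0 CPM, and the mesothelial marker Msln was at most 0.0788 CPM. Their part in the adventitial difference was not tested. T cell genes summed to 12.96 to 21.8 CPM against 15.2 to 27.4 CPM, B cell genes to 8.43 to 26.3 CPM against 9.29 to 27.7 CPM.

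Contrasts by label do not use Dpp4, but they overlap with the Dpp4 sides, because 2 of the 3 higher-side libraries are both TG+ and gp38-low. Their adventitial counts therefore partly repeat the split by Dpp4. They also rest on labels that did not match the RNA in every library. They asked whether the transgene or the sort label goes with differences among the 7. In the 3 TG+ against the 4 TG- libraries, edgeR's quasi-likelihood test called 0 of 14914 genes (0.0%), while 150 had an unadjusted p under 0.05; DESeq2 also called 0. Dpp4 differed by 0.76 ± 0.59 (adjusted p = 1.0), Ccl19 by -0.13 ± 0.22 and Acta2 by -0.18 ± 0.23. The adventitial genes were higher in TG+ in 21 of 25, against 50.8% of all genes, with a median of 0.26. In the 3 libraries labelled gp38-low against the 4 labelled CD45, edgeR called 0 of 14914 (0.0%), while 505 had an unadjusted p under 0.05. DESeq2 called 0. The edgeR number under 0.05 depended on single libraries. It was 2513 of 15503 without gp38-low TG+ replicate 1 and 2078 of 14655 without CD45 TG- replicate 3. Leaving out any other library gave 234 to 331. Dpp4 differed by 0.91 ± 0.56 (adjusted p = 0.896), and the adventitial genes were higher in gp38-low in 22 of 25, against 49.0% of all genes, with a median of 0.54.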

How the data were processed

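RNA was measured in 27 libraries, and 7 were analysed in depth. Per the labels' protocols, total RNA of cells sorted into TRIzol was made into libraries with a KAPA HyperPrep kit with ribosomal RNA removal. The submitters' processing notes name mm10, STAR 2.5.2a, Trim Galore 0.4.3 and bcl2fastq 2.17. Which annotation release was counted is not stated there. The authors deposited raw counts per gene for each library, and the reverse-strand column was used. STAR's counter takes uniquely mapped reads, so near-identical genes lose reads. Of 54446 gene identifiers, 54409 matched GENCODE M21.

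CPM is the count divided by the library's reads in genes. The Ccl21a (1000 CPM) and Dpp4 (13 CPM) thresholds, the members and the gene lists were chosen with earlier results of these data known. Differences came from edgeR 4.0.16 (R 4.3.3, TMM factors, filterByExpr, quasi-likelihood, Benjamini-Hochberg at 0.05), tested on simulated data. Each SE was derived from that fit, as the absolute log2 difference divided by the square root of the quasi-likelihood F statistic. DESeq2 1.42.0 and limma 3.58.1 (voom with sample quality weights) served as alternatives. Dpp4 and Ccl21a were left out of all list counts and medians. By rule, the text names Dpp4, Ccl19, Acta2, Ccl21a, Ptprc, Pdpn, up to 5 members of each programme or pathway list with the smallest p, and up to 10 separated genes per direction. A member that this rule takes is not reported here. Other members, and genes of position, handling and other cell types, were named after their values were seen. Any 2 of the 7 libraries differed by more than sampling noise (chi-square per gene of at least 11.9), so none was counted as a copy.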

Additional observations from a re-analysis of the deposited data

Results flagged for a closer look

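Among the 4 lower-side libraries, 78 named genes were searched for a library far from the other 3 on the log2(CPM + 0.5) scale, and 6 were found. Chance alone flags about 1 in 20 groups. In 4 of the 6 the library that stood apart was gp38-low TG- replicate 3, with the lowest value of the lower side: Nexn at 3.93 CPM, Mylk at 470.2 CPM, Gucy1b1 at 30.2 CPM and Traf3 at 55.7 CPM. This is the library next to the Dpp4 threshold, and its unmapped share, 59.7%, was the highest of the 7. In the remaining genes the library was CD45 TG+ replicate 3, with the highest Ccn2, at 157 CPM, and the lowest Ifit3, at 2.07 CPM. A high unmapped share was not confined to gp38-low TG- replicate 3. The share was 51.8%, 38.25% and 53.7% on the higher side and 39.0%, 35.3%, 33.05% and 59.7% on the lower side. Its part in the differences between the sides was not tested.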

How the results depend on the processing

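The number of genes called between the sides was 0 under relative log expression factors, unstranded counts, Gm26917, mitochondrial and acinar genes left out, the other stromal libraries in the fit and the population label as a term. It was 122 with DESeq2, 131 with limma-voom, 311 with no low-count filter and 14 with the genotype label as a term. Leaving out each library in turn gave 0 to 136, with 136 without gp38-low TG+ replicate 3, 80 without gp38-low TG- replicate 3 and 0 without any other. Chosen after seeing the data, moving gp38-low TG- replicate 3 to the higher side gave 43 calls, and leaving out both libraries next to the threshold gave 279. The cause was not tested. The TG+ against TG- count was 2 without the filter and 0 otherwise. The gp38-low against CD45 count was 8 without the filter, 2 without CD45 TG- replicate 3 and 0 otherwise, so 0 to 2 when each library was left out.

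The adventitial median, 1.19, ran from 0.85 (without gp38-low TG+ replicate 1) to 1.43 when each library was left out and was 1.55 without both threshold libraries. The T zone reticular median ran from -0.20 to 0.03 with each library left out. The contractile median ran from -0.07 to 0.15 with each left out (0.15 without gp38-low TG- replicate 3), was 0.23 with that library moved and 0.17 without both threshold libraries, so its sign differed between settings. The count of separated adventitial genes, 16, ran from 11 (library moved) to 19. With Gm26917 left out of the total, 4 libraries were on the higher side. Of 78 named genes, 3 changed sign in some alternative (Ccl19, Acta2 and Notch3).

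Replicate numbers gave no clear pairing. Deviations across sides correlated from -0.204 to 0.274 over 5 same-numbered pairs and from -0.449 to 0.349 over 7 pairs with different numbers. Of 7 libraries 4 correlated best with their own number, and CD45 TG- replicate 2 had no same-numbered library across the sides. In log2 CPM gp38-low TG- replicate 3 correlated at 0.985 with gp38-low TG+ replicate 3, and at 0.965 to 0.973 with libraries of its own side. With the replicate block, 0 genes were called between the sides (smallest adjusted p 0.355), and 0 in both label contrasts; the adventitial median was 1.09. With 3 and 4 libraries, and 9609428 reads in genes in the shallowest, low genes such as Coch and Mmrn1 rest on few counts.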

Other observations

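Cell cycle genes were lower on the higher Dpp4 side in most members: of 23 that passed, 7 were higher, with a median of -0.17. Mki67, present in dividing cells, was at 3.70, 19.6 and 4.79 CPM on the higher side and at 11.5, 22.4, 26.8 and 9.05 CPM on the lower side, with overlap. In 1 of the 23 genes all 3 higher-side libraries lay below, near the share over all genes (2.37%). Aurkb, a mitotic kinase, separated the sides at low levels, at 0.511, 0.552 and 0.312 CPM against 0.731, 1.497, 1.77 and 0.914 CPM. The mean centred log2 level of the list was -0.421, 0.221 and -0.300 against -0.182, 0.356, 0.317 and 0.009, so the sides overlapped.

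Genes of MHC class II were present beside low levels of the pan-leukocyte transcript Ptprc, at 1.28 to 5.79 CPM. H2-Ab1 was at 56.2, 50.2 and 76.2 CPM against 40.7, 39.6, 47.2 and 55.4 CPM, and Cd74 at 135, 113 and 134 CPM against 123, 124, 132 and 97.4 CPM. The macrophage marker Adgre1 was at most 0.315 CPM. Of 15 genes listed for macrophages and dendritic cells 8 passed and 5 were higher, with a sum of 245 to 310 CPM against 231 to 263 CPM. Which cells held the class II transcripts was not tested. Glycam1, a ligand of L-selectin made by high endothelial venules, reached 63.9 CPM in gp38-low TG+ replicate 1, against 5.14 to 12.5 CPM in the other 6.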
